A study of Homo sapiens with 15 samples.

Results

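Interferon-stimulated genes (ISGs) are transcribed when interferon binds its receptors on a cell. A list of 50 human ISGs was followed by gene symbol in RNA-Seq data of multiple myeloma (MM) cells, and all 50 were found among the 20468 RefSeq genes of the deposited tables, 47 with the symbol as written and 3 after a change of capitals. Genes were matched to the list by symbol alone, but the list itself was chosen with earlier results of these data known. MM.1S and RPMI8226, established lines from human plasma cell myeloma, were each profiled in monoculture (MONO), in the upper chamber of transwell cultures shared with HS5 (TSW), and in the lower chamber in contact with the adherent HS5 cells (CO). HS5 is a human bone marrow stromal line, the cultures lasted 48 h, and the study sorted CD90-negative, CD38-positive MM cells before RNA was isolated. MM.1S had 3 libraries per condition and RPMI8226 had 2, which makes 15 libraries. Replicates of a condition are cultures of 1 line, so p-values measure only the spread between these libraries. The values are RPKM, the reads on a gene scaled to its exon length and to the depth of the library, and they came from 9009028 to 19050834 read pairs on genes per library. At this depth, 3 read pairs on a transcript of 2 kb would correspond to between 0.0787 and 0.167 RPKM, a limit that covers counting error only.

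Type I interferons bind IFNAR1 and IFNAR2, type II interferon binds IFNGR1 and IFNGR2, and type III interferons bind IFNLR1 and IL10RB. The receptors activate the kinases JAK1, JAK2 and TYK2, which phosphorylate STAT proteins. A complex that contains STAT2 and IRF9 binds the interferon-stimulated response element (ISRE), whereas STAT dimers bind the gamma-activated sequence (GAS). The proteins made from ISGs detect viral RNA, block viral entry and translation, tag other proteins, or feed back on the pathway, and some of them, such as IRF8 and BST2, are also part of the ordinary programme of B-lineage cells.

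Promoters are printed for 6 ISGs that were called higher in coculture of both lines, so that the letters next to their starts can be compared; of the ISGs called in both lines that had a match, they are the 6 with the largest change in either line. RefSeq promoter windows (GRCh38.p14, from 250 bases before to 50 bases after a start) were matched by gene ID for 39 of the 50 members, with 52 windows. Windows were not matched for IFIT2, OAS2, OASL, MX2, GBP2, GBP5, USP18, IRF2, IRF7, IFITM2 and TRIM22. The ISRE core was searched as GAAANNGAAA, which reads TTTCNNTTTC on the other strand, and GAS as TTCNNNGAA, which reads the same on both strands. The ISRE core was present in 1255 of 35116 windows of all genes (3.57%) and in 34 of the 52 windows of members (65.4%). GAS was present in 2689 windows of all genes (7.66%) and in 16 windows of members (30.8%). Counted by gene, 29 of 39 members had an ISRE core in at least 1 window, 14 had GAS, 9 had both and 5 had neither (DDX58, IRF8, HERC6, XAF1 and ADAR). A match describes the letters of a window, and its use by a factor was not tested. In the sequences, given 5′ to 3′ on the strand of the gene, capitals mark the matches. MX1 (chr21:41420308-41420607, + strand, the first of its 3 windows) held an ISRE core that began 11 bases after the start, and in GBP4 (chr1:89198893-89199192, - strand) it ran across the start. PARP9 (chr3:122564251-122564550, - strand, 1 of 2 windows) and GBP1 (chr1:89065159-89065458, - strand) each held 1 ISRE core before the start. IRF9 (chr14:24161015-24161314, + strand) held GAS alone. In EPSTI1 (chr13:42992192-42992491, - strand) a GAS match and an ISRE core overlapped and appear as 1 run of capitals.
MX1: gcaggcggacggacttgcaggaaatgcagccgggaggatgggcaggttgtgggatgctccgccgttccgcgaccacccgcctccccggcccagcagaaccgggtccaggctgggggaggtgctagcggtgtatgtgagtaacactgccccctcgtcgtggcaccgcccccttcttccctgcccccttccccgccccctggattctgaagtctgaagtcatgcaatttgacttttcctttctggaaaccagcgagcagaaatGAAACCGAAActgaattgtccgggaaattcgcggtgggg
GBP4: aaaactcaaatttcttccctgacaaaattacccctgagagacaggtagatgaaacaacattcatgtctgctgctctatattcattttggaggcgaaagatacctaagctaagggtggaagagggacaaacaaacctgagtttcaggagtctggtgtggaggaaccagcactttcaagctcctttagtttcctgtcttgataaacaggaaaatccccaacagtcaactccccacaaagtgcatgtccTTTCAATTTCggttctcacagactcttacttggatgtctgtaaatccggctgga
PARP9: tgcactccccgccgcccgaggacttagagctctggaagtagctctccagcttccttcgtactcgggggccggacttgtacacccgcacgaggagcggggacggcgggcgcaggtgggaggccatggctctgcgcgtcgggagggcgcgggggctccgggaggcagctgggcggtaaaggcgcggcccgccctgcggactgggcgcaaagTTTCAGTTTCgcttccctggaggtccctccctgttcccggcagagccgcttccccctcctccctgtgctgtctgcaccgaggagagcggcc
GBP1: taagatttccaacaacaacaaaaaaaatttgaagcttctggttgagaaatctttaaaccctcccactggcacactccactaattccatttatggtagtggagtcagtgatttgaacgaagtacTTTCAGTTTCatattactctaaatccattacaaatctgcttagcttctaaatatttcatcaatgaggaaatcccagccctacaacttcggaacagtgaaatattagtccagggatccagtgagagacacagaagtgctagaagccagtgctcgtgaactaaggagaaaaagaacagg
IRF9: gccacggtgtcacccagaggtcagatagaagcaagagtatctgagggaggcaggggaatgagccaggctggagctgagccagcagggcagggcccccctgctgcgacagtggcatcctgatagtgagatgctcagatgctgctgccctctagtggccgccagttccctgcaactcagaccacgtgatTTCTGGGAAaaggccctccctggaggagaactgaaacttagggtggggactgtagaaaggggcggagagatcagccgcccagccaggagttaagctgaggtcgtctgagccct
EPSTI1: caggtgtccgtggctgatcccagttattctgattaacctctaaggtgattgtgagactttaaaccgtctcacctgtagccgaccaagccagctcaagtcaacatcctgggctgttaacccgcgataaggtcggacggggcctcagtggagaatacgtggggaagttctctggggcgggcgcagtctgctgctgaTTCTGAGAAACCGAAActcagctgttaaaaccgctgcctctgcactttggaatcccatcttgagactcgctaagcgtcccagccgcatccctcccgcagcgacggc

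The label of the cells was checked against markers. All 10 plasma cell markers examined (SDC1, CD38, TNFRSF17, XBP1, IRF4, PRDM1, MZB1, JCHAIN, POU2AF1 and SLAMF7) were above 1 RPKM in every MM.1S library, and 9 were in every RPMI8226 library. SLAMF7 was the exception, at no more than 0.104 RPKM in RPMI8226. JCHAIN was the most abundant of them in every library. Some of these markers differed from MONO in coculture. TNFRSF17 was called lower in TSW and CO of MM.1S (log2 fold change -1.80 and -2.14) and of RPMI8226 (-3.50 and -3.83). XBP1 and PRDM1 were called higher in both conditions of both lines. JCHAIN was called lower in MM.1S (-0.85 and -0.91) and higher in RPMI8226 (0.80 and 1.02). Of 7 markers of other immune cells, none reached the mean of 1 RPKM required for testing in MM.1S, though CD3E was measured there at 2.05, 1.46 and 1.69 RPKM in MONO, 0.139, 0.478 and 0.504 in TSW, and 0.698, 0.689 and 0.430 in CO, with every coculture library below MONO, and was called lower in TSW and CO with no filter. PTPRC alone reached it in RPMI8226, where it was measured at 0.0432 and 0.0364 RPKM in MONO, 3.98 and 4.0 in TSW, and 5.44 and 5.12 in CO. PTPRC was near 0 in MONO and higher in every TSW and CO library.

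RNA of stromal genes was present in CO. Of 30 stromal markers, 24 were higher in every CO library than in any MONO or TSW library of the same line, in MM.1S and in RPMI8226 alike, and 11 in each line had no read pair in MONO and TSW and some in every CO library. The summed level of the 30 markers in MM.1S was 34.6, 36.4 and 35.2 RPKM in MONO, 29.0, 28.7 and 32.0 in TSW, and 195, 215 and 183 in CO, where MMP1 was the most abundant. In RPMI8226 FN1 exceeded all others, at 3989.7 and 4309.9 RPKM in MONO, 1678 and 1962 in TSW, and 2007 and 2169 in CO. Without FN1, the sum in RPMI8226 was 102 and 108 RPKM in MONO, 201 and 226 in TSW, and 249 and 316 in CO, with S100A6 the most abundant. POSTN had no read pair in any library and COL6A3 had none in RPMI8226. THY1, the gene of CD90, was measured in MM.1S at 0, 0.0219 and 0.0629 RPKM in MONO, 0.0293, 0 and 0 in TSW, and 0.570, 0.489 and 0.453 in CO. In RPMI8226 THY1 was measured at 0.0669 and 0.0282 RPKM in MONO, 0 and 0 in TSW, and 0.0767 and 0.111 in CO. The RPMI8226 values rest on at most 5 read pairs per library. The part of stromal RNA in the CO values of ISGs was not tested. TSW cells shared the medium with HS5 but were kept apart from it. Their stromal sum was not above MONO in MM.1S, whereas in RPMI8226 the sum without FN1 was above MONO. Most of that sum in TSW was S100A6, at 178 and 203 RPKM against 69.7 and 74.8 in MONO. LOX was also called higher in TSW of RPMI8226 and CAV1 lower. COL1A2, COL3A1, MMP1, MMP2 and TFPI2 had no read pair in TSW of that line. In bulk RNA, more cells expressing a gene and more RNA per cell cannot be told apart.

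One MM.1S library stood apart from its replicates. MM.1S MONO replicate 1 had the fewest read pairs, and the standard deviation of its log2 differences from the other MONO libraries was 0.429 and 0.434 over the 10153 genes tested. It was 0.257 between those other two, and it ranged from 0.148 to 0.226 within TSW and CO of MM.1S. The difference is visible in ISGs as well. ADAR was measured at 71.8, 129 and 122 RPKM in the 3 MONO libraries and OAS3 at 0.919, 2.64 and 2.16, with replicate 1 the lowest. It was the highest for other ISGs, such as BST2 at 486, 332 and 304 RPKM and IFI6 at 9.81, 7.14 and 5.26, so its difference went both ways. The counts and medians of ISGs in MM.1S against MONO, and most log2 fold changes of single genes, are therefore also given without it.

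The comparisons ask whether soluble factors in the shared medium (TSW against MONO), coculture with contact (CO against MONO) and contact beyond medium (CO against TSW) go with different ISG levels. The study describes trypsin for coculture conditions, and its coculture wells held MM cells in both chambers. Against MONO, such differences cannot be told apart from soluble factors or contact. TSW and CO were both compared with the same MONO libraries, so these comparisons are not independent. Genes with a mean of at least 1 RPKM over the libraries of a line were tested, 10153 in MM.1S and 10319 in RPMI8226, with limma on log2(RPKM + 1). A gene was called at an adjusted p under 0.05 over all genes tested and a fold change over 1.5. The tables of the 2 lines were normalized separately, so all tests were made within a line and a difference in response between the lines was not tested.

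In MM.1S, 34 of the 50 ISGs passed the filter and 16 were below it. Of the 34, 9 were called higher in TSW, where 6.48% of all genes tested were called higher, and 0 were called lower, where 4.16% of all genes were. In CO, 10 were called higher (7.13% of all genes) and 0 lower (4.65% of all genes). At an unadjusted p under 0.05, limma gave 3 of the 34 lower in TSW and 2 in CO, and limma with voom weights on recovered read pairs called 1 and 0 lower. The median log2 fold change of the 34 ISGs was 0.35 in TSW and 0.37 in CO, against 0.01 and 0.00 over the other genes tested. Of the 10 genes called in CO, PARP9 and LGALS3BP were below 1 RPKM on average in MONO and passed the filter only through TSW and CO, so that they had to differ. Among the 32 tested ISGs with a MONO mean of at least 1 RPKM, 7 were called higher in TSW (5.79% of all genes with such a mean) and 8 in CO (6.18%), and 0 lower in either (4.25% and 4.76%). IFIT3 also had such a MONO mean (1.10 RPKM), but its low means in TSW (0.203) and CO (0.279) left it below the filter. The 0 lower therefore leaves it out. With no filter all 50 were tested, and 10 were called higher in TSW (3.79% of all genes) and 13 in CO (4.65%), with 1 lower in each (IFIT3; 2.69% and 3% of all genes). Without MONO replicate 1, 10 of 35 ISGs tested were called higher in TSW (5.43% of all genes) and 11 in CO (5.4%), and the medians were 0.25 and 0.33.

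In RPMI8226, 47 of the 50 ISGs passed the filter, and GBP5, USP18 and RSAD2 were below it. In TSW, 45 were called higher (14.5% of all genes tested were) and 1 lower (17.9% of all genes). In CO, 45 were called higher (16.4%) and 1 lower (22.9%). The gene called lower was IRF8 in both comparisons, and ADAR was tested but not called. The median log2 fold change of the 47 was 2.15 in TSW and 2.29 in CO, against -0.08 and -0.10 over the other genes tested. Median-of-ratios scaling shifted the median of all genes in CO by 0.102, and the ISG median was then 2.35. The size of the median depends on the pseudocount, since with 0.1 in place of 1 it was 3.12 in TSW and 2.79 in CO, the opposite order, against -0.09 and -0.11 over the other genes. Of the 47, 16 were below 1 RPKM on average in MONO and passed only through TSW and CO: IFIT1, IFIT2, OAS3, MX1, MX2, GBP1, DDX58, DDX60, HERC6, IFITM2, IFITM3, IFI27, IFI44, IFI44L, TRIM22 and XAF1. Among the 31 with a MONO mean of at least 1 RPKM, 29 were called higher (13% of all genes with such a mean in TSW and 14.6% in CO), 1 lower (18.5% and 23.6%) and 1 was not called, in TSW and in CO. With no filter, 47 of 50 were called higher in TSW (9.46% of all genes) and 48 in CO (11%), and 1 was called lower in each (11.8% and 14.9%). The change of every ISG against MONO is plotted by role, and the spread of these changes is plotted beside that of the other genes tested.

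**Figure D1:**
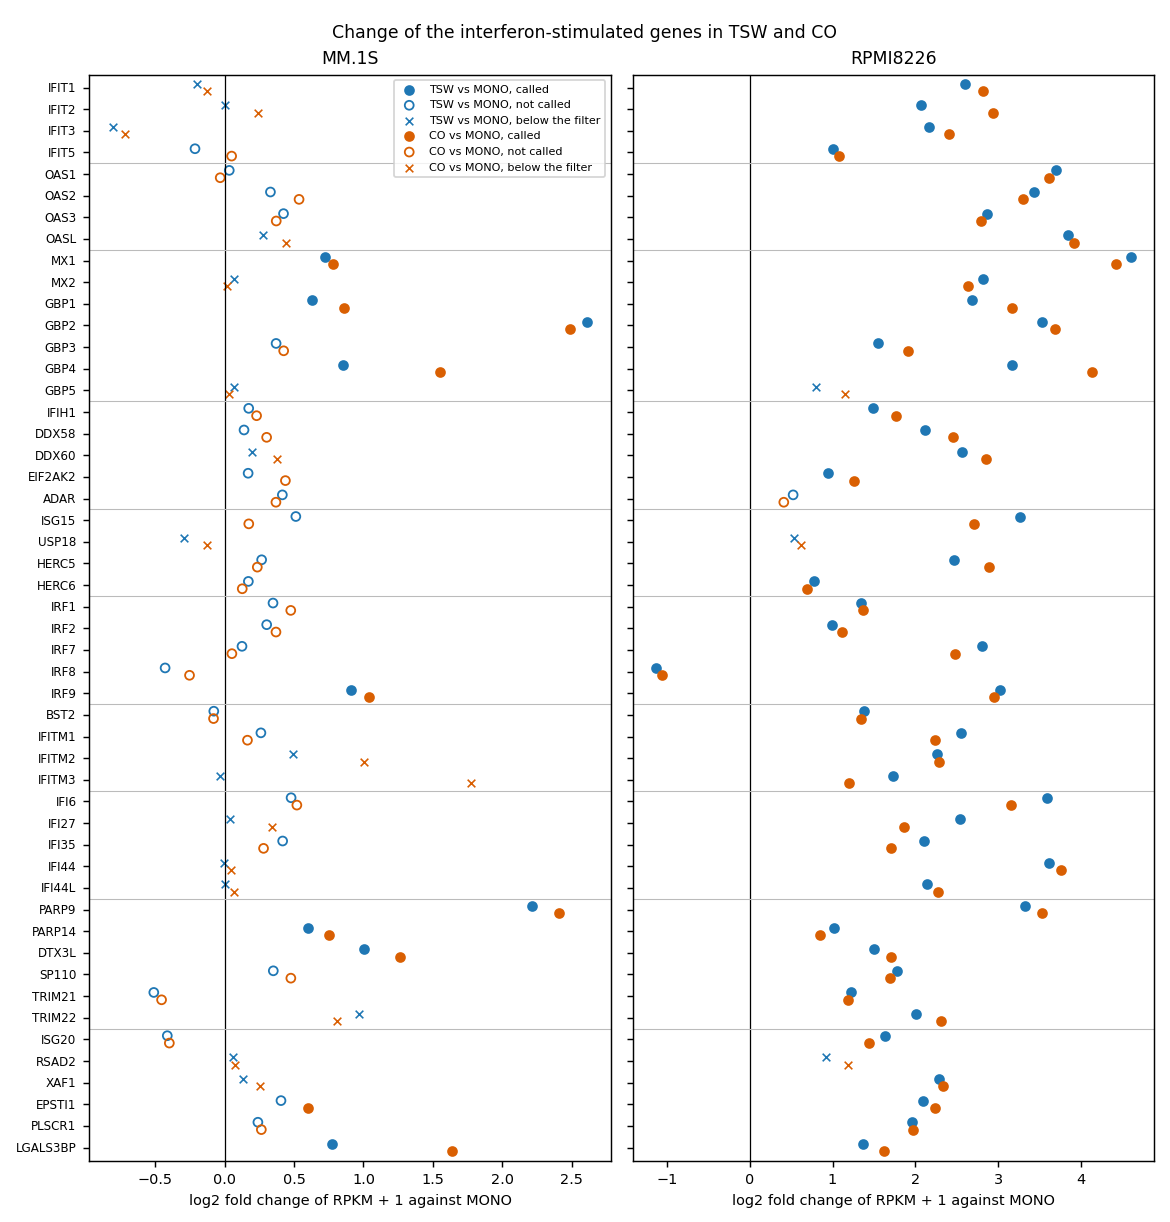
Log2 fold change of RPKM + 1 in TSW (blue) and CO (orange) against MONO for each of the 50 ISGs, with grey lines between roles. Filled points were called, open points were tested and not called, and crosses mark genes below the filter, taken from the fit with no filter; GBP2 and PARP9 lie farthest to the right in MM.1S and MX1 in RPMI8226, and the 2 panels have different horizontal scales.

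**Figure D2:**
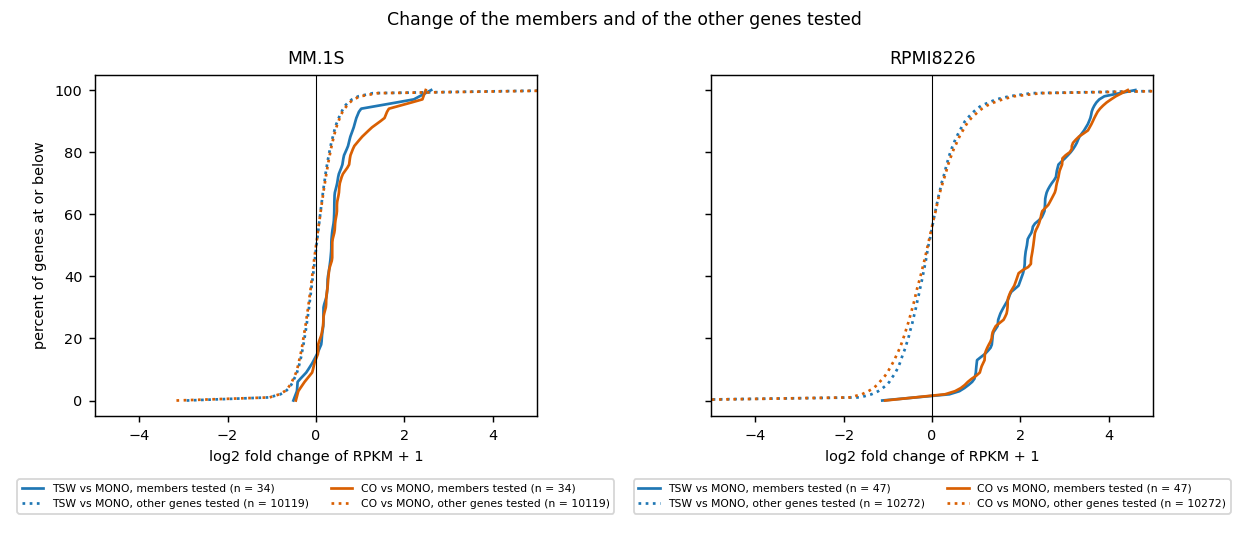
Percent of genes at or below a log2 fold change, for the ISGs tested (solid) and the other genes tested (dotted) in TSW (blue) and CO (orange) against MONO. The ISG curves lie to the right of the dotted ones, with medians of 0.35 and 0.37 in MM.1S and 2.15 and 2.29 in RPMI8226.

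Interferon genes themselves gave few read pairs. Of 21 interferon genes, 17 had no read pair in any MM.1S library and 14 had none in any RPMI8226 library. None reached a mean of 1 RPKM, so none was tested. IFNB1, which encodes interferon beta, was measured in RPMI8226 at 0 and 0.161 RPKM in MONO, 0.385 and 0.398 in TSW, and 0.730 and 0.317 in CO, values that rest on at most 10 read pairs per library. IFNG, which encodes interferon gamma, was measured in MM.1S at 0, 0.174 and 0.0623 RPKM in MONO, 0.290, 0.217 and 0.630 in TSW, and 0.0513, 0.108 and 0.897 in CO. In RPMI8226 IFNG was measured at 0.132 and 0.614 RPKM in MONO, 0.0446 and 0.0461 in TSW, and 0 and 0.044 in CO. On these few read pairs, IFNB1 lay above MONO in every coculture library of RPMI8226 and IFNG lay below it, while in MM.1S IFNG was above MONO in TSW and overlapped it in CO. Both genes were picked after their values were seen. In RPMI8226, 2 of the 21 interferon genes lay above MONO and 1 below, in TSW and in CO alike. The share of all genes at such levels that lay apart was not counted.

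Of 6 receptor genes, IFNGR1 was called higher and IFNLR1 lower in both lines and both coculture conditions. IFNGR1 had log2 fold changes of 0.62 in TSW and 0.62 in CO for MM.1S, and of 1.03 in TSW and 1.12 in CO for RPMI8226. IFNLR1, the receptor chain specific to type III interferons, was measured in MM.1S at 9.79, 14.2 and 13.6 RPKM in MONO, 5.95, 6.48 and 5.95 in TSW, and 5.54, 6.83 and 5.94 in CO. In RPMI8226 IFNLR1 was measured at 3.60 and 4.07 RPKM in MONO, 0.267 and 0.298 in TSW, and 0.351 and 0.316 in CO, and it passed the filter only through MONO, where its libraries were all higher. For IFNAR2, a chain of the type I receptor, RPMI8226 gave 18.4 and 16.8 RPKM in MONO, 49.4 and 43.4 in TSW, and 51.3 and 52.6 in CO (log2 fold change 1.35 and 1.51). IFNAR2 was not called in MM.1S, where its libraries lay between 25.7 and 32.1 RPKM. In RPMI8226, IL10RB was also called higher in TSW and CO (0.87 and 0.85), and IFNAR1 in CO alone (0.64). IFNGR1 had 0.62 in TSW and 0.62 in CO of MM.1S without MONO replicate 1, with -1.06 and -1.07 for IFNLR1.

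STAT2, which is part of the ISRE-binding complex, was measured in MM.1S at 13.6, 16.8 and 14.5 RPKM in MONO, 24.4, 25.5 and 22.6 in TSW, and 22.5, 22.3 and 20.6 in CO. RPMI8226 gave 6.18 and 5.35 RPKM in MONO, 53.1 and 51.6 in TSW, and 55.6 and 51.8 in CO for STAT2. Every coculture library was above every MONO library in both lines. STAT2 was called higher in both conditions in RPMI8226 (2.98 and 3.02) and in TSW alone in MM.1S (0.66), since in CO of MM.1S its log2 fold change of 0.52 (adjusted p 0.003) did not reach the fold required. STAT3, which carries signals of IL6-type cytokines, was called higher in both conditions of both lines, with log2 fold changes of 1.47 in TSW and 1.35 in CO for MM.1S and 1.68 in TSW and 1.57 in CO for RPMI8226. The kinase JAK2 was called higher in CO of RPMI8226 alone (0.88), and JAK1 and TYK2 were not called with all libraries. Without MONO replicate 1 JAK1 was called lower in MM.1S (-0.61 and -0.62, against -0.26 and -0.27 with it). STAT2 had 0.60 in TSW and 0.46 in CO of MM.1S without MONO replicate 1, with 1.44 and 1.32 for STAT3, and the calls of STAT2 and STAT3 were the same.

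Of 6 inhibitors of the pathway, SOCS3 was called higher in both conditions of both lines. Its log2 fold changes were 5.86 in TSW and 5.95 in CO for MM.1S, where it passed the filter only through TSW and CO, and 4.39 in TSW and 4.37 in CO for RPMI8226. PTPN6, a phosphatase of receptor complexes, was called higher in RPMI8226 (1.57 and 1.46). SOCS3 had 5.88 in TSW and 5.97 in CO of MM.1S without MONO replicate 1. The phosphatases PTPN1 and PTPN2 and PIAS1 were not called with all libraries, PTPN2 was called higher in TSW of MM.1S without MONO replicate 1 (0.62), and SOCS1 was below the filter in both lines.

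The 5 IRF transcription factors differed in direction. IRF9, which binds STAT2, was measured in MM.1S at 2.45, 2.82 and 2.88 RPKM in MONO, 6.06, 7.17 and 4.90 in TSW, and 6.66, 6.10 and 7.11 in CO. In RPMI8226 IRF9 was measured at 2.44 and 2.78 RPKM in MONO, 30.1 and 26.7 in TSW, and 28.5 and 25.4 in CO. MONO and coculture libraries did not overlap in either line, and MONO levels were alike, between 2.45 and 2.88 RPKM in MM.1S and at 2.44 and 2.78 in RPMI8226, each on its own scale. The log2 fold changes of IRF9 were 0.91 ± 0.13 (SE) in TSW and 1.04 ± 0.13 in CO (adjusted p 4.3e-04 and 1.7e-04) for MM.1S and 3.03 ± 0.10 (SE) in TSW and 2.95 ± 0.10 in CO (adjusted p 3.2e-09 and 3.4e-09) for RPMI8226. IRF8, a factor of B-cell and myeloid development, was measured in RPMI8226 at 13.5 and 12.8 RPKM in MONO, 5.84 and 5.11 in TSW, and 6.08 and 5.46 in CO. It was the 1 ISG called lower in that line (-1.13 and -1.06), with every coculture library under every MONO library. IRF8 in MM.1S was measured at 3.13, 3.75 and 3.77 RPKM in MONO, 2.95, 2.05 and 2.17 in TSW, and 2.29, 2.91 and 3.29 in CO; TSW lay under MONO, CO overlapped it, and neither was called. IRF7, which amplifies type I interferon production, had a log2 fold change of 2.80 in TSW and 2.49 in CO in RPMI8226 and was not called in MM.1S (0.12 and 0.05, the latter of opposite sign with quantile normalization). IRF2, the most abundant of the 5 in MONO of MM.1S, was measured there at 31.9, 39.2 and 38.4 RPKM in MONO, 47.6, 43.6 and 44.1 in TSW, and 50.5, 49.0 and 42.7 in CO. IRF1, the most abundant of the 5 in RPMI8226, was measured there at 20.3 and 22.3 RPKM in MONO, 55.5 and 55.8 in TSW, and 56.6 and 56.0 in CO. IRF2 lay above MONO in every TSW and CO library, as did IRF1 in RPMI8226. IRF1 and IRF2, which bind related sites, were called higher in RPMI8226 (1.35 and 1.36 for IRF1, 0.99 and 1.12 for IRF2). In MM.1S both were higher in every coculture library than in MONO, below the fold required (0.35 and 0.48 for IRF1, 0.30 and 0.37 for IRF2). IRF9 had 0.86 in TSW and 0.99 in CO of MM.1S without MONO replicate 1, with 0.39 and 0.52 for IRF1, 0.21 and 0.28 for IRF2, 0.23 and 0.16 for IRF7, -0.50 and -0.32 for IRF8.

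The dynamin-like GTPases include the guanylate-binding proteins (GBPs) and the MX proteins that restrict viruses. In MM.1S 5 of them were tested, and 4 were called higher in TSW (6.48% of all genes) and in CO (7.13%). A difference from the other ISGs was not tested. GBP2 was measured in MM.1S at 2.07, 2.30 and 2.08 RPKM in MONO, 19.1, 19.0 and 16.7 in TSW, and 18.3, 15.1 and 16.6 in CO. In RPMI8226 GBP2 was measured at 10.9 and 10.1 RPKM in MONO, 129 and 136 in TSW, and 147 and 147 in CO. The 3 MONO libraries of MM.1S lay within a narrow range and far below TSW and CO, and in both lines MONO and coculture did not overlap. The log2 fold changes of GBP2 were 2.61 ± 0.10 (SE) in TSW and 2.49 ± 0.10 in CO (adjusted p 6.1e-08 and 3.1e-08) for MM.1S and 3.53 ± 0.07 (SE) in TSW and 3.68 ± 0.07 in CO (adjusted p 1.5e-10 and 8.6e-11) for RPMI8226. GBP4 was measured in MM.1S at 1.59, 1.72 and 1.71 RPKM in MONO, 4.51, 3.05 and 4.04 in TSW, and 7.59, 6.35 and 6.59 in CO. In RPMI8226 GBP4 was measured at 2.24 and 2.36 RPKM in MONO, 29.2 and 28.2 in TSW, and 57.4 and 56.7 in CO. In both lines all libraries of MONO, TSW and CO were in that order with no overlap, and its log2 fold changes against MONO were 0.85 ± 0.12 (SE) in TSW and 1.55 ± 0.12 in CO (adjusted p 5.8e-04 and 7.1e-06) for MM.1S and 3.17 ± 0.07 (SE) in TSW and 4.14 ± 0.07 in CO (adjusted p 4.7e-10 and 7.6e-11) for RPMI8226. GBP2 had 2.59 in TSW and 2.47 in CO of MM.1S without MONO replicate 1, with 0.83 and 1.53 for GBP4.

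GBP1 was measured in MM.1S at 12.0, 13.6 and 15.9 RPKM in MONO, 23.0, 20.1 and 22.5 in TSW, and 26.4, 25.8 and 25.0 in CO. In RPMI8226 GBP1 was measured at 0.302 and 0.149 RPKM in MONO, 7.04 and 6.72 in TSW, and 10.5 and 9.49 in CO. All coculture libraries were higher than MONO in each line, with log2 fold changes of 0.63 in TSW and 0.86 in CO for MM.1S and 2.69 in TSW and 3.17 in CO for RPMI8226. In TSW of MM.1S the change in GBP1 was 0.54 without MONO replicate 1, short of the fold required. MX1, an antiviral GTPase, was measured in MM.1S at 0.934, 1.39 and 1.08 RPKM in MONO, 2.76, 2.10 and 2.72 in TSW, and 2.57, 2.55 and 2.81 in CO. In RPMI8226 MX1 was measured at 0.708 and 0.540 RPKM in MONO, 44.0 and 33.6 in TSW, and 35.2 and 32.8 in CO. MX1 had the largest log2 fold change of RPKM + 1 among the ISGs of RPMI8226, 4.60 ± 0.12 (SE) in TSW and 4.43 ± 0.12 in CO (adjusted p 1.1e-09 and 9.8e-10), and in MM.1S it was 0.73 in TSW and 0.78 in CO. In RPMI8226 MX1 passed the filter only through TSW and CO, so it had to differ there. The addition of 1 RPKM shrinks the change of genes near 0 in MONO. By the fold of mean RPKM, IFI44L, TRIM22, IFI44, GBP5 and RSAD2 were above MX1 in TSW and CO, and IFI27 in TSW alone. This fold rests on few read pairs in MONO for such genes, and GBP5 and RSAD2 were below the filter. GBP3 was called in RPMI8226 (1.55 and 1.92) and not in MM.1S (0.37 and 0.42), where its coculture libraries were nevertheless all above MONO. MX1 had 0.66 in TSW and 0.71 in CO of MM.1S without MONO replicate 1, with 0.27 and 0.33 for GBP3, and GBP1 had 0.77 in CO. MX2 was called in RPMI8226 (2.82 and 2.63) and stayed at or under 0.208 RPKM in every MM.1S library. GBP5, the least abundant of the role in MONO, was below the filter in both lines, and in RPMI8226 it was measured at 0.0198 and 0 RPKM in MONO, 0.692 and 0.812 in TSW, and 1.15 and 1.33 in CO. In MM.1S GBP5 was measured at 0, 0.013 and 0.0186 RPKM in MONO, 0.0173, 0.0649 and 0.094 in TSW, and 0.0153, 0.0643 and 0.0179 in CO. GBP5 lay above MONO in every TSW and CO library of RPMI8226, and overlapped MONO in TSW and in CO for MM.1S.

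PARP9 and DTX3L, which act as a pair in mono-ADP-ribosylation and ubiquitination, and PARP14, an ADP-ribosyltransferase, were called higher in both lines. PARP9 was measured in MM.1S at 0.593, 0.683 and 0.831 RPKM in MONO, 6.76, 6.48 and 7.46 in TSW, and 8.58, 7.69 and 7.87 in CO. In RPMI8226 PARP9 was measured at 1.79 and 1.71 RPKM in MONO, 28.2 and 25.1 in TSW, and 31.0 and 30.4 in CO. MONO libraries lay apart from the others in both lines, and the log2 fold changes were 2.21 ± 0.10 (SE) in TSW and 2.41 ± 0.10 in CO (adjusted p 1.2e-07 and 3.2e-08) for MM.1S and 3.33 ± 0.09 (SE) in TSW and 3.53 ± 0.09 in CO (adjusted p 9.2e-10 and 4.9e-10) for RPMI8226. In MM.1S PARP9 passed the filter only through TSW and CO, so it had to differ there. DTX3L was measured in MM.1S at 6.85, 9.56 and 10.8 RPKM in MONO, 18.6, 18.6 and 19.5 in TSW, and 23.0, 22.4 and 23.0 in CO, with TSW above MONO and CO above TSW in every library (log2 fold change 1.0 and 1.26 against MONO). In RPMI8226, where DTX3L was the most abundant gene of the role, it was measured at 13.0 and 12.5 RPKM in MONO, 41.2 and 34.9 in TSW, and 44.7 and 43.5 in CO. DTX3L lay above MONO in every TSW and CO library, with log2 fold changes of 1.5 in TSW and 1.71 in CO. PARP14 was measured in MM.1S at 5.14, 7.88 and 8.26 RPKM in MONO, 10.5, 10.7 and 12.1 in TSW, and 12.7, 11.7 and 12.8 in CO. Its MONO replicate 1 was the lowest, and without it the log2 fold changes of PARP14 were 0.41 in TSW and 0.56 in CO, under the fold required, against 0.60 in TSW and 0.75 in CO with it. Its call in TSW was also lost without TSW replicate 3 and with quantile normalization. PARP9 had 2.17 in TSW and 2.36 in CO of MM.1S without MONO replicate 1, with 0.83 and 1.09 for DTX3L. In RPMI8226 PARP14 had log2 fold changes of 1.02 in TSW and 0.85 in CO.

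The nuclear factor SP110 and the ubiquitin ligases TRIM21 and TRIM22 were called higher in RPMI8226, with log2 fold changes between 1.19 and 2.31. In MM.1S SP110 and TRIM21 were not called. There SP110 was higher than MONO in every coculture library (0.35 and 0.48) and TRIM21 was lower in each (-0.51 and -0.45), both below the fold required. SP110 had 0.25 in TSW and 0.37 in CO of MM.1S without MONO replicate 1, with -0.43 and -0.37 for TRIM21. TRIM21, the most abundant of the role in MONO of MM.1S, was measured there at 22.3, 21.2 and 16.2 RPKM in MONO, 15.5, 12.9 and 12.4 in TSW, and 14.3, 14.98 and 13.1 in CO. TRIM22, the least abundant in both lines, was under the filter in MM.1S, at 0.0718, 0.255 and 0.146 RPKM in MONO, 1.2, 1.34 and 1.23 in TSW, and 1.13, 1.22 and 0.749 in CO. In RPMI8226 TRIM22 was measured at 0 and 0.0656 RPKM in MONO, 3.70 and 2.69 in TSW, and 4.06 and 4.18 in CO. Its coculture libraries were all above MONO in both lines, and with no filter TRIM22 was called higher in TSW and CO of MM.1S (0.97 and 0.81).

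The oligoadenylate synthetases OAS1, OAS2 and OAS3, which make the activator of RNase L, and the related OASL were called higher in RPMI8226 and not in MM.1S. OASL was measured in RPMI8226 at 6.69 and 7.06 RPKM in MONO, 108 and 116 in TSW, and 110.3 and 126 in CO. OAS1 was measured in RPMI8226 at 4.55 and 3.74 RPKM in MONO, 71.4 and 60.2 in TSW, and 63.6 and 60.01 in CO, and OAS2 at 5.12 and 5.27 RPKM in MONO, 72.8 and 60.2 in TSW, and 62.0 and 58.4 in CO. OAS3, the least abundant of them in that line, was measured at 0.302 and 0.335 RPKM in MONO, 9.47 and 7.78 in TSW, and 7.96 and 8.32 in CO. The MONO libraries of all 4 were far below those of TSW and CO, which overlapped each other. Log2 fold changes in RPMI8226 were 3.84 in TSW and 3.92 in CO for OASL, 3.70 in TSW and 3.61 in CO for OAS1, 3.44 in TSW and 3.30 in CO for OAS2 and 2.86 in TSW and 2.79 in CO for OAS3. In MM.1S OAS1 was the most abundant, at 9.4, 9.31 and 8.87 RPKM in MONO, 9.83, 9.33 and 9.14 in TSW, and 9.2, 9.18 and 8.53 in CO, and its libraries overlapped between all conditions. OAS1 had 0.05 in TSW and -0.02 in CO of MM.1S without MONO replicate 1. OAS2 in MM.1S was measured at 4.04, 6.25 and 6.73 RPKM in MONO, 7.27, 7.21 and 7.25 in TSW, and 8.31, 8.47 and 8.76 in CO, and its change in CO of 0.54 (adjusted p 0.017) was just short of the fold required. OAS2 was called higher in CO with a pseudocount of 0.1 and with voom weights, but without MONO replicate 1, its lowest MONO library, it had 0.14 in TSW and 0.35 in CO. OAS3 in MM.1S had log2 fold changes of 0.42 in TSW and 0.37 in CO, but 0.15 and 0.10 without MONO replicate 1, and OASL, the least abundant, was below the filter there, at 0.266, 0.201 and 0.181 RPKM in MONO, 0.706, 0.536 and 0.219 in TSW, and 0.626, 0.782 and 0.555 in CO. For OASL, TSW overlapped MONO and CO lay above MONO.

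The IFIT proteins, which bind foreign RNA and block its translation, were called higher in RPMI8226 in all 4 cases, as were 45 of 47 ISGs tested. Of all genes tested there, 14.5% were called higher in TSW and 16.4% in CO. IFIT2 was measured in RPMI8226 at 0.436 and 0.502 RPKM in MONO, 5.19 and 5.12 in TSW, and 10.3 and 10.3 in CO, with no overlap between MONO, TSW and CO. Its log2 fold changes were 2.07 in TSW and 2.94 in CO. IFIT3, the most abundant there in TSW and CO, was measured at 4.06 and 3.33 RPKM in MONO, 21.5 and 18.6 in TSW, and 25.0 and 22.8 in CO (log2 fold change 2.17 and 2.41). IFIT1 had log2 fold changes of 2.60 in TSW and 2.82 in CO in RPMI8226, and IFIT5, the most abundant in MONO, was measured at 4.25 and 4.02 RPKM in MONO, 10.7 and 8.01 in TSW, and 10.4 and 9.23 in CO. IFIT5 lay above MONO in every TSW and CO library (1.0 and 1.07). In MM.1S IFIT5 was the only gene of the family above the filter, at 2.78, 2.94 and 3.21 RPKM in MONO, 2.49, 2.18 and 2.62 in TSW, and 2.71, 3.44 and 3.23 in CO. For IFIT5, TSW lay below MONO and CO overlapped MONO, and it was not called (-0.21 and 0.05, the latter of opposite sign with quantile normalization). IFIT5 had -0.25 in TSW and 0.01 in CO of MM.1S without MONO replicate 1. IFIT3 was measured in MM.1S at 1.13, 1.18 and 0.982 RPKM in MONO, 0.173, 0.301 and 0.134 in TSW, and 0.372, 0.161 and 0.306 in CO, so that it was lower in each coculture library than in any MONO library. IFIT2, the least abundant in MONO, was measured in MM.1S at 0, 0.015 and 0.0863 RPKM in MONO, 0.0803, 0.0188 and 0 in TSW, and 0.480, 0.112 and 0.103 in CO, and IFIT1 did not exceed 0.223 RPKM. For IFIT2, TSW overlapped MONO and CO lay above MONO.

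The sensors of double-stranded RNA IFIH1 (MDA5) and DDX58 (RIG-I), the helicase DDX60 and the kinase EIF2AK2 (PKR) were called higher in RPMI8226. Their log2 fold changes were 1.48 in TSW and 1.77 in CO for IFIH1, 2.12 in TSW and 2.46 in CO for DDX58, 2.56 in TSW and 2.86 in CO for DDX60 and 0.95 in TSW and 1.26 in CO for EIF2AK2. ADAR, an RNA-editing enzyme and the most abundant of the role, was measured in RPMI8226 at 132 and 137 RPKM in MONO, 194 and 193 in TSW, and 180.1 and 178 in CO. Its coculture libraries were all above MONO, with log2 fold changes of 0.52 ± 0.06 (SE) in TSW and 0.41 ± 0.06 in CO (adjusted p 3.3e-05 and 1.5e-04), under the fold required. With median-of-ratios scaling, ADAR was called higher in TSW. DDX60, the least abundant of the role in MONO, was measured in RPMI8226 at 0.227 and 0.201 RPKM in MONO, 7.37 and 5.14 in TSW, and 7.60 and 8.0 in CO. It was far lower in MONO than in coculture. In MM.1S none of the 4 that passed the filter was called, and their log2 fold changes lay between 0.14 and 0.44. ADAR had 0.15 in TSW and 0.10 in CO of MM.1S without MONO replicate 1, with 0.06 and 0.11 for IFIH1, 0.14 and 0.30 for DDX58, -0.05 and 0.22 for EIF2AK2, so that EIF2AK2 had the opposite sign in TSW. ADAR in MM.1S was measured at 71.8, 129 and 122 RPKM in MONO, 142, 139 and 136 in TSW, and 131, 141 and 132 in CO. DDX60 was below the filter in MM.1S, at 0.264, 0.367 and 0.595 RPKM in MONO, 0.637, 0.597 and 0.579 in TSW, and 0.675, 0.806 and 0.991 in CO. ADAR lay above MONO in every TSW and CO library, and for DDX60, TSW overlapped MONO and CO lay above MONO.

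ISG15 is a ubiquitin-like protein that HERC5 attaches to other proteins and USP18 removes. ISG15 was measured in RPMI8226 at 16.2 and 15.8 RPKM in MONO, 181 and 146 in TSW, and 104 and 117 in CO. HERC5 was measured in RPMI8226 at 10.6 and 10.9 RPKM in MONO, 75.2 and 54.7 in TSW, and 82.2 and 89.4 in CO. For both genes MONO lay far below coculture, but TSW was above CO for ISG15 and below it for HERC5. Log2 fold changes were 3.27 ± 0.10 (SE) in TSW and 2.71 ± 0.10 in CO (adjusted p 2.4e-09 and 7.3e-09) for ISG15 and 2.47 ± 0.12 (SE) in TSW and 2.89 ± 0.12 in CO (adjusted p 7.2e-08 and 1.9e-08) for HERC5. HERC6, a relative of HERC5, had log2 fold changes of 0.77 in TSW and 0.69 in CO. ISG15 in MM.1S was measured at 5.16, 3.78 and 2.83 RPKM in MONO, 6.10, 5.32 and 6.28 in TSW, and 3.26, 5.57 and 4.77 in CO. TSW was above MONO in each MM.1S library and CO overlapped it, and ISG15 was not called (0.51 and 0.17); without MONO replicate 1 it was called higher in TSW (0.69) and had 0.35 in CO. HERC5, the most abundant of the role in MM.1S, was measured there at 16.4, 15.5 and 18.4 RPKM in MONO, 19.6, 20.05 and 21.3 in TSW, and 20.03, 19.3 and 20.2 in CO. HERC5 lay above MONO in every TSW and CO library. HERC5 and HERC6 were not called in MM.1S, with log2 fold changes between 0.13 and 0.27. HERC5 had 0.25 in TSW and 0.22 in CO of MM.1S without MONO replicate 1, with 0.08 and 0.04 for HERC6. USP18, the least abundant of the role, was below the filter in both lines, at 0.527, 0.224 and 0.608 RPKM in MONO, 0.166, 0.187 and 0.181 in TSW, and 0.206, 0.495 and 0.274 in CO for MM.1S. In RPMI8226 USP18 was measured at 0.038 and 0 RPKM in MONO, 0.691 and 0.291 in TSW, and 0.727 and 0.429 in CO. For MM.1S TSW lay below MONO and CO overlapped MONO, and in RPMI8226 USP18 lay above MONO in every TSW and CO library.

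Of the membrane proteins that hold back viruses, BST2 (tetherin) was the most abundant ISG in MONO of both lines. BST2 was measured in MM.1S at 486, 332 and 304 RPKM in MONO, 355, 348 and 337 in TSW, and 306, 359 and 377 in CO. In RPMI8226 BST2 was measured at 285 and 288 RPKM in MONO, 719 and 774 in TSW, and 732 and 727 in CO. MM.1S libraries overlapped between conditions (log2 fold change -0.08 and -0.08, of opposite sign without MONO replicate 1), and those of RPMI8226 did not overlap between MONO and coculture (log2 fold change 1.38 and 1.35). IFITM1 was measured in RPMI8226 at 114 and 126 RPKM in MONO, 708 and 717 in TSW, and 574 and 572 in CO (log2 fold change 2.56 and 2.24). In MM.1S IFITM1 was measured at 1.55, 1.02 and 1.89 RPKM in MONO, 2.15, 2.02 and 1.70 in TSW, and 1.65, 1.82 and 1.82 in CO, a level that overlapped between conditions. IFITM2 and IFITM3 were called higher in RPMI8226 (2.26 and 2.29 for IFITM2, 1.73 and 1.2 for IFITM3) and were below the filter in MM.1S. IFITM3 in MM.1S was measured at 0, 0.0786 and 0 RPKM in MONO, 0, 0 and 0 in TSW, and 2.60, 2.15 and 2.82 in CO. It was found in every CO library and in no TSW library, and its mean in CO was at least 7.37-fold higher than a floor of 3 read pairs per library in TSW. With no filter IFITM3 was called higher in CO of MM.1S, against MONO (1.78) and against TSW (1.81). The stromal sums given above were also highest in CO of MM.1S, and their part in the level of IFITM3 was not tested. IFITM2 in MM.1S was measured at 0.608, 0.360 and 0.103 RPKM in MONO, 0.576, 1.08 and 1.04 in TSW, and 2.13, 1.96 and 1.09 in CO, with CO above MONO and TSW in every library. In RPMI8226, where IFITM2 was the least abundant of the role in MONO, it was measured at 0.439 and 0.0925 RPKM in MONO, 4.43 and 5.65 in TSW, and 5.04 and 5.25 in CO. IFITM2 lay above MONO in every TSW and CO library.

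Among the IFI genes, IFI6, a protein of mitochondria and endoplasmic reticulum, and IFI44 had the largest log2 fold changes of RPKM + 1 in RPMI8226, whereas by the fold of mean RPKM IFI6 came after IFI44L, IFI44 and IFI27. IFI6 was measured in RPMI8226 at 21.5 and 23.2 RPKM in MONO, 300.3 and 263 in TSW, and 208 and 208 in CO. IFI44 was measured in RPMI8226 at 0.239 and 0.101 RPKM in MONO, 16.2 and 11.01 in TSW, and 16.3 and 13.6 in CO. Both were far lower in MONO, and their log2 fold changes were 3.59 in TSW and 3.16 in CO for IFI6 and 3.62 in TSW and 3.77 in CO for IFI44. In the same line IFI35 (2.10 and 1.71), IFI27 (2.54 and 1.86) and IFI44L (2.15 and 2.27) were called higher. IFI44L, the least abundant of the role in MONO, was measured in RPMI8226 at 0 and 0.0456 RPKM in MONO, 4.72 and 2.59 in TSW, and 4.37 and 3.53 in CO. In MM.1S it was measured at 0, 0.00886 and 0 RPKM in MONO, 0.0118, 0 and 0 in TSW, and 0.021, 0.077 and 0.0488 in CO. It was near 0 in MONO of both lines, and TSW overlapped MONO and CO lay above MONO for MM.1S. In MM.1S IFI6 was measured at 9.81, 7.14 and 5.26 RPKM in MONO, 10.7, 10.4 and 10.2 in TSW, and 9.53, 10.9 and 11.9 in CO. IFI6 was not called with all libraries (0.48 and 0.52) and was called higher without MONO replicate 1 (0.68 and 0.72). IFI35, the most abundant of the role in MM.1S, was measured there at 21.7, 17.8 and 17.4 RPKM in MONO, 27.0, 26.1 and 23.6 in TSW, and 20.1, 25.1 and 24.6 in CO. For IFI35, TSW lay above MONO and CO overlapped MONO, and it was not called (0.42 and 0.28; 0.51 and 0.37 without MONO replicate 1), and IFI27, IFI44 and IFI44L were below the filter.

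Of the remaining effectors, LGALS3BP, a secreted galectin-binding glycoprotein, and EPSTI1 were called in both lines. LGALS3BP was measured in MM.1S at 0.295, 0.418 and 0.167 RPKM in MONO, 1.02, 1.37 and 1.25 in TSW, and 3.30, 3.78 and 2.14 in CO. MONO, TSW and CO followed each other with no overlap, and the log2 fold changes against MONO were 0.78 ± 0.15 (SE) in TSW and 1.64 ± 0.15 in CO (adjusted p 0.0036 and 2.2e-05). In RPMI8226 they were 1.36 in TSW and 1.63 in CO. LGALS3BP passed the filter in MM.1S only through TSW and CO, so it had to differ there. EPSTI1 was measured in MM.1S at 1.90, 1.93 and 1.83 RPKM in MONO, 2.50, 3.06 and 2.93 in TSW, and 3.48, 3.15 and 3.50 in CO, and it was called in CO (0.60) but not in TSW (0.41). The call in CO was lost without MONO replicate 3, CO replicate 1 or CO replicate 3, and with quantile normalization. In RPMI8226, where it was the most abundant of the role, EPSTI1 was measured at 8.24 and 6.78 RPKM in MONO, 37.3 and 33.3 in TSW, and 39.5 and 38.3 in CO. EPSTI1 lay above MONO in every TSW and CO library (2.10 and 2.24). PLSCR1, a phospholipid scramblase, ISG20, an RNA exonuclease, and XAF1, a partner of the apoptosis inhibitor XIAP, were called higher in RPMI8226, with log2 fold changes between 1.44 and 2.33. In MM.1S PLSCR1 was the most abundant, at 10.0, 13.0 and 13.5 RPKM in MONO, 14.5, 14.0 and 14.9 in TSW, and 14.7, 15.5 and 14.0 in CO. PLSCR1 lay above MONO in every TSW and CO library, and it was not called (0.24 and 0.26). ISG20 was lower in each coculture library than in MONO and was not called (-0.41 and -0.40). LGALS3BP had 0.78 in TSW and 1.64 in CO of MM.1S without MONO replicate 1, with 0.41 and 0.60 for EPSTI1, 0.12 and 0.14 for PLSCR1, -0.30 and -0.28 for ISG20. XAF1 was below the filter in MM.1S. RSAD2 (viperin), the least abundant of the role, was below the filter in both lines, at 0 and 0.0289 RPKM in MONO, 1.04 and 0.801 in TSW, and 1.25 and 1.38 in CO for RPMI8226. In MM.1S RSAD2 was measured at 0.0238, 0.0337 and 0.0162 RPKM in MONO, 0.0902, 0.113 and 0 in TSW, and 0.120, 0.0838 and 0.031 in CO. RSAD2 lay above MONO in every TSW and CO library in RPMI8226, and for MM.1S overlapped MONO in TSW and in CO.

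**Figure D3:**
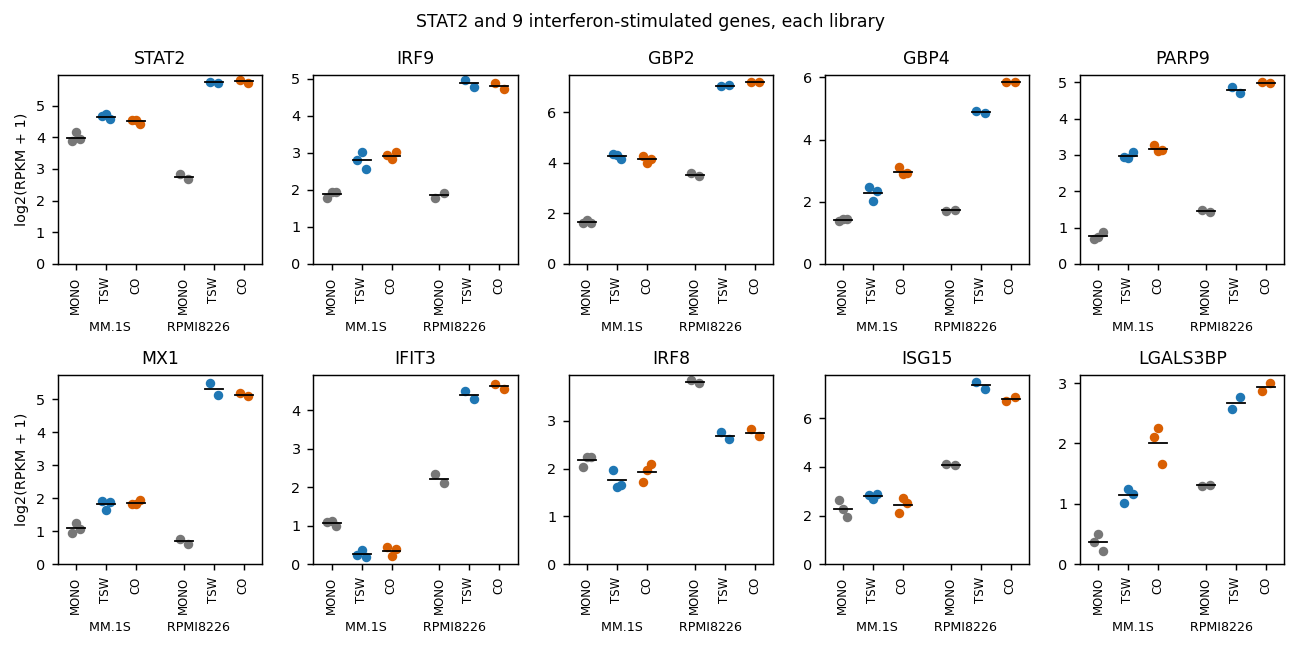
Level as log2(RPKM + 1) of STAT2 and 9 ISGs in each library (points) with the mean (bar), in MONO (grey), TSW (blue) and CO (orange) of MM.1S (left) and RPMI8226 (right). GBP2, GBP4, PARP9 and IRF9 are higher in coculture in both lines, IFIT3 is lower in coculture in MM.1S and higher in RPMI8226, and IRF8 is lower in coculture of RPMI8226; levels of the 2 lines were normalized separately.

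The libraries behind this plot show GBP2, GBP4, PARP9, IRF9, MX1 and LGALS3BP higher in coculture of both lines, and IFIT3 and IRF8 apart from them. All 9 ISGs called higher in TSW of MM.1S were also called higher in TSW of RPMI8226, where 45 were called, so the shared genes were 100% of the shorter list and 20% of the longer. In CO the 10 called in MM.1S were all among the 45 of RPMI8226 (22.2%). With 45 of 47 tested ISGs called in RPMI8226, most choices of ISGs would be shared, and PARP9 and LGALS3BP were tested in MM.1S only through coculture. Of all genes tested in both lines, 327 were called higher in TSW of both, which is 54.7% of those called in MM.1S and 25.8% of those called in RPMI8226, and in CO 390 were (59.8% and 26.9%). Direct comparison of CO with TSW gave few calls. In MM.1S, 2 of the 34 ISGs were called higher in CO (0.374% of all genes) and 0 lower (0.0394%), with 0 lower at an unadjusted p under 0.05 in limma and 0 called lower with voom weights. The 2 were GBP4 (0.70 ± 0.12 (SE), adjusted p 0.036) and LGALS3BP (0.86 ± 0.15, adjusted p 0.035). Leaving out any 1 TSW or CO library of MM.1S removed at least 1 of these calls, and the count was then 0 or 1. Both calls were also lost with a pseudocount of 0.1 and with quantile normalization, that of GBP4 with the replicate block and that of LGALS3BP with voom weights. In these fits the change was 0.82, 0.67 and 0.70 for GBP4. It was 1.24, 0.82 and 1.31 for LGALS3BP, so that the adjusted p and not the fold fell short. In RPMI8226, 2 of 47 were called higher in CO (1.9% of all genes) and 1 lower (2.39%). They were IFIT2 (0.88, adjusted p 2.2e-04) and GBP4 (0.97, adjusted p 2.6e-05), both higher in each CO library, and IFI27 (-0.68, adjusted p 0.0096). IFI27 was measured in RPMI8226 at 0 and 0.163 RPKM in MONO, 6.45 and 4.31 in TSW, and 2.81 and 3.02 in CO. Its CO libraries lay under TSW. The call of IFI27 was lost without TSW replicate 1 (-0.44) and without CO replicate 1 (-0.65). It was also lost with a pseudocount of 0.1 (-0.83, adjusted p 0.13) and with no filter (-0.68, adjusted p 0.071).

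Across the list, 33 of the 50 ISGs had a mean of at least 1 RPKM in MONO of MM.1S, 35 in TSW and 37 in CO. In RPMI8226 the numbers were 31, 47 and 49. The median level of the 50 was 2.12 RPKM in MONO, 3.35 in TSW and 3.82 in CO of MM.1S. For RPMI8226 it was 2.83 RPKM in MONO, 18.3 in TSW and 18.3 in CO. No ISG was without a read pair in all libraries of a line. MONO levels of the 2 lines, each on its own scale, set some genes apart. IFITM1 had a MONO mean of 1.49 RPKM in MM.1S and 120.4 in RPMI8226, whereas GBP1 had 13.8 in MM.1S and 0.226 in RPMI8226.

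**Figure D4:**
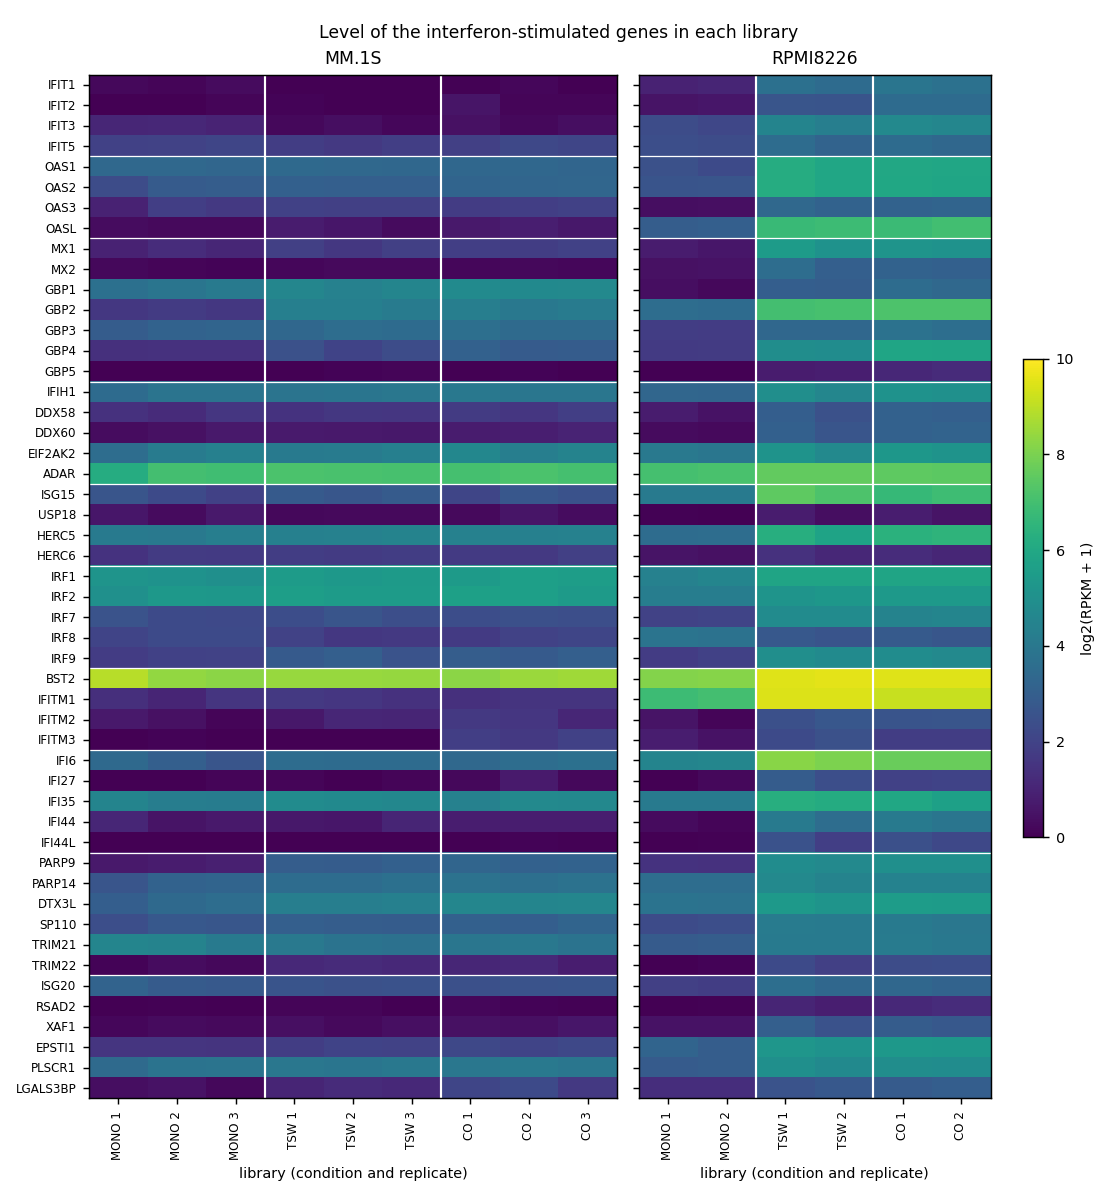
Level as log2(RPKM + 1) of the 50 ISGs (vertical, with white lines between roles) in each of the 15 libraries (horizontal, with white lines between conditions). RPMI8226 turns brighter from MONO to TSW and CO for most genes, while in MM.1S the differences are smaller and most visible in genes such as GBP2, DTX3L and PARP9.

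The heat map of levels also shows groups of neighbouring genes. By position in RefSeq, 24 of the 50 ISGs lay in 8 groups with gaps of no more than 200 kb. In the group of GBP3, GBP1, GBP2, GBP4 and GBP5 on chromosome 1, 4 genes were tested, of which 3 were called higher in each coculture condition of MM.1S (all genes, 6.48% in TSW and 7.13% in CO) and 4 in RPMI8226 (all genes, 14.5% and 16.4%). Without MONO replicate 1, GBP1 was not called in TSW of MM.1S (0.54). PARP9, DTX3L and PARP14 on chromosome 3 were all called in both lines, though PARP14 was not called in MM.1S without MONO replicate 1. The 4 IFIT genes on chromosome 10 and the OAS1, OAS3 and OAS2 group on chromosome 12 were called higher in RPMI8226 throughout. In MM.1S the 3 OAS genes and IFIT5 were tested and not called, and the other IFIT genes were below the filter. Genes of a group can share sequence and regulation, so that their calls are not independent.

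Motif matches in the promoter windows were also counted by call. Of 8 ISGs called higher in TSW of MM.1S that had a window, 7 held an ISRE core and 3 GAS. Of 22 tested and not called, 14 held an ISRE core and 9 GAS. Of 9 not tested in MM.1S, 8 held an ISRE core and 2 GAS. Of 36 called higher in TSW of RPMI8226 with a window, 28 held an ISRE core and 14 GAS. IRF8 and ADAR, the ISGs tested in RPMI8226 and not called higher, had neither match in their windows, but DDX58, HERC6 and XAF1 had none either and were called higher. These are counts with no test.

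Genes of the pathway outside the list of 50 were read in the same way. Of 44 other interferon-induced genes, 36 were tested in MM.1S, with 9 called higher and 3 lower in TSW and 8 higher and 0 lower in CO. Of all genes tested in MM.1S, 6.48% were called higher and 4.16% lower in TSW, and 7.13% and 4.65% in CO. In RPMI8226 36 were tested, with 25 called higher and 1 lower in TSW and 24 higher and 1 lower in CO. Of 19 sensors and adaptors upstream of interferon, 14 were tested in MM.1S (2 higher and 1 lower in TSW, 2 and 1 in CO). In RPMI8226 17 were tested (7 higher and 2 lower in TSW, 6 and 3 in CO). Of all genes tested in RPMI8226, 14.5% were called higher and 17.9% lower in TSW, and 16.4% and 22.9% in CO, so that several of these counts are near the share of all genes.

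RNF213, a ubiquitin ligase, was measured in MM.1S at 4.49, 8.05 and 7.46 RPKM in MONO, 33.0, 31.8 and 31.9 in TSW, and 28.4, 30.1 and 36.2 in CO (log2 fold change 2.15 and 2.11), with MONO apart from coculture. In RPMI8226 the log2 fold changes of RNF213 were 2.85 in TSW and 2.68 in CO. In MM.1S the DNA sensor AIM2 (1.14 and 0.90), the thiol reductase IFI30 (1.15 and 0.93), APOL6 (1.08 and 1.04), the aminopeptidase LAP3 (0.94 and 0.80) and the tryptophanyl-tRNA synthetase WARS (0.83 and 0.65) were called higher in TSW and CO. The kinase IKBKE was lower in both (-1.52 and -1.5), and NMI was lower in TSW alone (-0.86). RNF213 had 1.93 in TSW and 1.89 in CO of MM.1S without MONO replicate 1, with 1.14 and 0.89 for AIM2, 1.21 and 0.99 for IFI30, 0.94 and 0.90 for APOL6, 0.93 and 0.79 for LAP3, 0.90 and 0.72 for WARS, -1.47 and -1.45 for IKBKE, -0.73 and -0.39 for NMI, with the same calls. In RPMI8226 the death ligand TNFSF10 (TRAIL) was measured at 0.392 and 0.617 RPKM in MONO, 14.3 and 10.2 in TSW, and 15.4 and 15.7 in CO (log2 fold change 3.12 and 3.46). TNFSF10 was low in MONO and passed the filter through TSW and CO. SLFN5 (2.88 and 3.09), APOL1 (2.29 and 2.65), SAMD9L (2.29 and 2.62), the RNA sensor TLR7 (2.18 and 2.51) and TMEM173 (STING; 2.51 and 2.27) were called higher in RPMI8226. CXCL10, a chemokine induced by interferon gamma, went the other way in RPMI8226, at 46.3 and 45.6 RPKM in MONO, 6.74 and 5.87 in TSW, and 8.92 and 7.83 in CO (log2 fold change -2.69 and -2.33). Its coculture libraries were all under MONO, and in MM.1S CXCL10 was called lower in TSW (-0.77) and not in CO (-0.29; -0.69 and -0.21 without MONO replicate 1).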

How the data were processed

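RNA-Seq values of 15 libraries of sorted MM.1S and RPMI8226 cells were used. The authors aligned paired-end reads to hg38 with Subread, counted them on RefSeq genes with featureCounts and made RPKM. The deposited values are on a log2 scale: they equal log2(RPKM + 1) plus 0.0001, and RPKM recovered from them are whole multiples of 1 read pair within a tolerance of 0.05. Tests used limma 3.58.1 in R 4.3.3 (1 fit per line over MONO, TSW and CO, eBayes with a trend) on log2(RPKM + 1) of genes with a mean of at least 1 RPKM, with Benjamini-Hochberg adjustment over all genes of a comparison. Alternatives were a pseudocount of 0.1, no filter, a mean of at least 5 RPKM, median-of-ratios scaling, quantile normalization, a replicate block, only the 2 conditions compared, a flat prior variance in place of a trend, calls by adjusted p alone, voom weights on recovered read pairs, leaving out each library, and for promoters only the bases before the start. Tables and plots used Python 3.11.15, numpy 2.4.6, pandas 2.3.3, scipy 1.17.1 and matplotlib 3.10.9. The members and lists were chosen with earlier results of these data known. Named were ISGs called in at least 1 of 6 comparisons, with library values for at most 15 in a line by largest change and for the most and least abundant of a role, called receptors, kinases, STATs and inhibitors, and at most 8 other pathway genes in a line. At most 6 promoters of called ISGs are printed. Abundance of a role was ranked by the mean in MONO. Library values outside this rule, chosen after they were seen, are those of IFIT3, IFI6, IRF8, ISG15, OAS2, OAS3, IFITM1 and IFITM2 in MM.1S, of IRF8, IFI27, IFIT3 and IFITM1 in RPMI8226, and of IFNB1, IFNG, PTPRC, CD3E, THY1 and FN1; CXCL10, JAK1 and PTPN2 in MM.1S were also named after it was seen. Replicate numbers were not used to pair libraries. The test was checked on simulated data. Chromosome positions and promoters are from RefSeq, GRCh38.p14, a patch of the build the authors used. 1 gene of the pathway outside the list of 50 is not reported here. Other data of the study were not analysed here.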

Additional observations from a re-analysis of the deposited data

Results flagged for a closer look

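For some ISGs every library of one line lay above its comparison and every library of the other line below it. The share of all genes with such a pattern was not counted, so the pattern is not read as particular to ISGs. The difference between the lines was not tested, and the log2 fold changes given are those of the fit with no filter, since some of these genes were below it. In TSW against MONO they were -0.81 in MM.1S and 2.17 in RPMI8226 for IFIT3, and -0.20 in MM.1S and 2.60 in RPMI8226 for IFIT1. IFIT5 had -0.21 in MM.1S and 1.0 in RPMI8226, and USP18 had -0.29 in MM.1S and 0.54 in RPMI8226. ISG20 had -0.41 in MM.1S and 1.64 in RPMI8226, and TRIM21 had -0.51 in MM.1S and 1.22 in RPMI8226. In CO against MONO, which shares the MONO libraries, the pattern held for IFIT3 (-0.72 in MM.1S and 2.41 in RPMI8226), ISG20 (-0.40 in MM.1S and 1.44 in RPMI8226) and TRIM21 (-0.45 in MM.1S and 1.19 in RPMI8226). In CO against TSW it held for IFI27 (0.30 in MM.1S and -0.68 in RPMI8226) and IFITM3 (1.81 in MM.1S and -0.53 in RPMI8226). IFIT1 and USP18 were measured in MM.1S at less than 1 RPKM in every library. IFI27 had a mean there of only 0.0589 RPKM in TSW and 0.318 in CO. IFIT3 in MM.1S rested on 29 to 64 read pairs per MONO library and 5 to 13 per TSW library.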

How the results depend on the processing

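In RPMI8226 all 46 ISGs called against MONO were called in the same direction under every alternative in which they were tested, in TSW and in CO, and leaving out a library gave 44 to 45 called higher and 1 lower. In MM.1S, 7 of the 9 called in TSW and 8 of the 10 called in CO kept their call under every alternative in which they were tested; GBP1 and PARP14 in TSW and EPSTI1 and PARP14 in CO did not. Leaving out a library of MM.1S gave 8 to 10 called higher in TSW and 9 to 12 in CO, and 0 to 1 called lower in each. Leaving out a TSW or CO library, the range for CO against TSW was 0 to 1 higher and 0 to 0 lower in MM.1S, and 2 to 4 higher and 0 to 2 lower in RPMI8226, where a condition left with 1 library is assumed to vary like the others. In MM.1S with no filter, 1 ISG was called lower in TSW and 1 in CO (IFIT3). With a mean of at least 5 RPKM, 6 were called higher in CO, since fewer genes were tested. With no fold change threshold, 15 were called higher and 3 lower in TSW, and 16 higher and 2 lower in CO, of MM.1S, where 1459 and 1310 of all 10153 genes were in TSW and 1647 and 1528 in CO. With voom weights 1 was called lower in TSW of MM.1S (IRF8), and 12 were called higher in CO, with OAS2 and IFI6 gained; OAS2 was also gained there with a pseudocount of 0.1. The count of 2 higher in CO against TSW of MM.1S was 0 with a pseudocount of 0.1, with a mean of at least 5 RPKM and with quantile normalization, and 1 with voom weights (GBP4). With no filter it was 3, with IFITM3 gained (1.81). With the replicate block it was 1 (LGALS3BP). The count of 1 lower in CO against TSW of RPMI8226 was 0 with no filter and with a mean of at least 5 RPKM, and with no fold change threshold 5 were called higher and 7 lower, of all 10319 genes 1045 and 1804, shares near those of the ISGs. With a pseudocount of 0.1 it stayed 1, with IFI27 lost and IFITM3 gained. Apart from filters and thresholds, the cause was not tested. No called value reversed. ISRE or GAS was found in 10.8% of all windows and 75.0% of windows of ISGs, and in 9.28% and 65.4% before the start. Calls of MM.1S gained without 1 library were TRIM21, lower, without MONO replicate 3 (TSW and CO) or TSW replicate 1 (TSW), OAS3 (TSW), OAS2 and IFITM2 (CO) without MONO replicate 2, and OAS2, EIF2AK2 and IFITM2 (CO) without MONO replicate 3. Without MONO replicate 1, ISG15 (TSW), IFI6 and IFITM2 (both) were gained; IFITM2 was below the filter with all libraries. In RPMI8226, for CO against TSW, HERC5, DDX58 and IFITM3 (lower) were gained without TSW replicate 1 and ISG15 (lower) without TSW replicate 2 or CO replicate 2.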
